A study of Mus musculus with 8 samples.

Results

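The genes of the constitutive proteasome were examined in cultured mouse myeloid-derived suppressor cells (MDSCs), which are immature myeloid cells able to hold back T cells, after treatment with the histone deacetylase inhibitor Romidepsin. The set holds every Psma, Psmb, Psmc, Psmd, Psme, Psmf and Psmg gene of the count table, without the interferon-inducible Psmb8, Psmb9, Psmb10, Psme1 and Psme2, together with the regulators Nfe2l1 and Ddi2 and the assembly factor Pomp. The rule found 45 of the 26930 genes in the table, and all 45 had enough counts to be tested. They divide into 15 core subunits (8 alpha-type, 7 beta-type), 9 subunits of the base, 8 of the lid, 8 assembly chaperones, 3 genes for activators or an inhibitor, and 2 regulators.

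RNA sequencing of poly(A) RNA gave 8 libraries, 4 from cells given 0.5 µM Romidepsin for 6 h and 4 from untreated cells. Cells of both groups came from C57BL/6 bone marrow, were grown with GM-CSF and IL-6 at 40 ng/ml each, and from day 4 were kept in conditioned medium of TRAMP-C1, a mouse prostate tumour cell line. The labels call these cells senescent-like, and name no separate cultures or animals, so that a p-value here reflects the spread among these libraries alone, which may be technical. The comparison asks which genes of these cells differ in expression with Romidepsin.

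The proteasome is the chamber in which cells degrade proteins tagged with ubiquitin. Its core is a stack of alpha-type and beta-type rings, with the catalytic sites on certain beta-type subunits. The cap on the core consists of a base, whose ATPases unfold substrates, and a lid, which removes ubiquitin. Assembly needs dedicated chaperones, which are not part of the finished particle. When proteasome activity falls short, the membrane-bound transcription factor NRF1 (Nfe2l1) is cleaved by the protease DDI2 and induces proteasome genes. In myeloid cells interferon exchanges the catalytic subunits for inducible ones, which form the immunoproteasome.

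Total counts ranged from 12996892 to 23176949 per library, with untreated replicate 4 the deepest. Levels are given as CPM, read counts relative to library size after TMM scaling (trimmed mean of M-values), and differences as the log2 ratio of treated to untreated cells, with its standard error (SE). "Called" means an adjusted p under 0.05 in edgeR's quasi-likelihood test over the 12852 genes tested. Treated replicate 3 stood apart from its group: its mean correlation with the untreated libraries was 0.934 and with the other treated libraries 0.910. All 16 markers of myeloid cells had enough counts to be tested, and 4 were called lower and none higher. Over all genes tested, 16.2% were called lower and 20.3% higher, and the marker calls below are to be read beside these shares. The summed level of the myeloid markers was 14609 to 34062 CPM in treated and 41131 to 48304 CPM in untreated libraries. In such bulk samples fewer cells of a type and less RNA per cell cannot be told apart. Of 5 B-cell markers 4 were called lower, at a sum of 17.5 to 77.7 CPM in treated and 82.9 to 279 CPM in untreated libraries. The summed level of 6 T- or NK-cell markers reached 7.25 CPM in treated and 30.1 CPM in untreated libraries, with 1 of the 3 tested called lower, and that of 5 mast-cell or basophil markers 23.8 and 31.7 CPM, with 1 of 5 called lower. Stromal markers summed to 14.6 to 168 CPM in treated and 28.8 to 84.0 CPM in untreated libraries, with 1 of 5 tested called lower. Megakaryocyte markers reached 813 CPM in treated and 865 CPM in untreated libraries, and dendritic-cell markers 24.6 and 24.4 CPM, with no call among 4 and 3 tested. Erythroid markers summed to at most 0.453 CPM in treated and 0.904 CPM in untreated libraries, and Xcr1, a dendritic-cell marker, was at 0 in 6 of 8 libraries. With the replicate block, which pairs libraries of the same number, 8 myeloid, 5 B-cell, 1 stromal and 1 mast-cell or basophil marker were called lower. None was called for T or NK cells, and 1 each was called higher for dendritic cells and stroma. That fit called 20.8% of all genes lower and 21.2% higher. The part of these cells in the results below was not tested.

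Most constitutive proteasome genes did not pass the test, and the 3 with the highest fold changes, Psmg1, Psmd5 and Psmg2, encode chaperones that build the particle. Chaperones were also among the lowest estimates, with Psmg4, Psmd10 and Pomp at -0.73, -0.34 and -0.28, and the calls of Psmg1 and Psmg2 were lost in 4 and 5 of the 8 fits that leave out a library. Among the 45 genes, 8 were called higher in treated cells: the assembly chaperones Psmg1, Psmd5, Psmg2 and Psmd9, the lid subunit Psmd3, the base subunits Psmd4 and Psmc6, and the alpha-type core subunit Psma5. That is 17.8% of the set, against 20.3% of all genes tested. None was called lower by edgeR's quasi-likelihood test, against 16.2% of all genes, and none had a negative change with an unadjusted p under 0.05 or a lower call in DESeq2. DESeq2 called 8 higher, against 21.9% of all genes, and 21.7% of all genes lower. The remaining 37 genes did not pass the test.

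The changes were small against those of other genes. The SD of the log2 fold changes was 0.40 over the 45 genes, against 1.18 over all genes tested and 0.94 over the 9039 whose mean reached 10 CPM. An absolute log2 fold change of at least 1 was estimated for 3 of the 45 (6.67%), namely Psmg1, Psmd5 and Psmg2. That share was 29.6% for all genes and 23.3% for those whose mean reached 10 CPM. The median log2 fold change was 0.17 for the set and 0.01 for all genes tested, and 32 of the 45 estimates were positive. Treated and untreated values did not overlap for 5 of the 45 genes, Psma5, Psmc6, Psmd4, Psmd12 and Psmd5, against 35.2% of all genes. In treated libraries the set took 0.599% ± 0.109 of all counts, and in untreated libraries 0.428% ± 0.042 (SD, n = 4 each). The groups overlapped, with 0.463% in treated replicate 3 and 0.482% in untreated replicate 1. After TMM scaling the sum over the set was 5370 ± 534 CPM in treated and 4746 ± 330 CPM in untreated libraries.

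**Figure D1:**
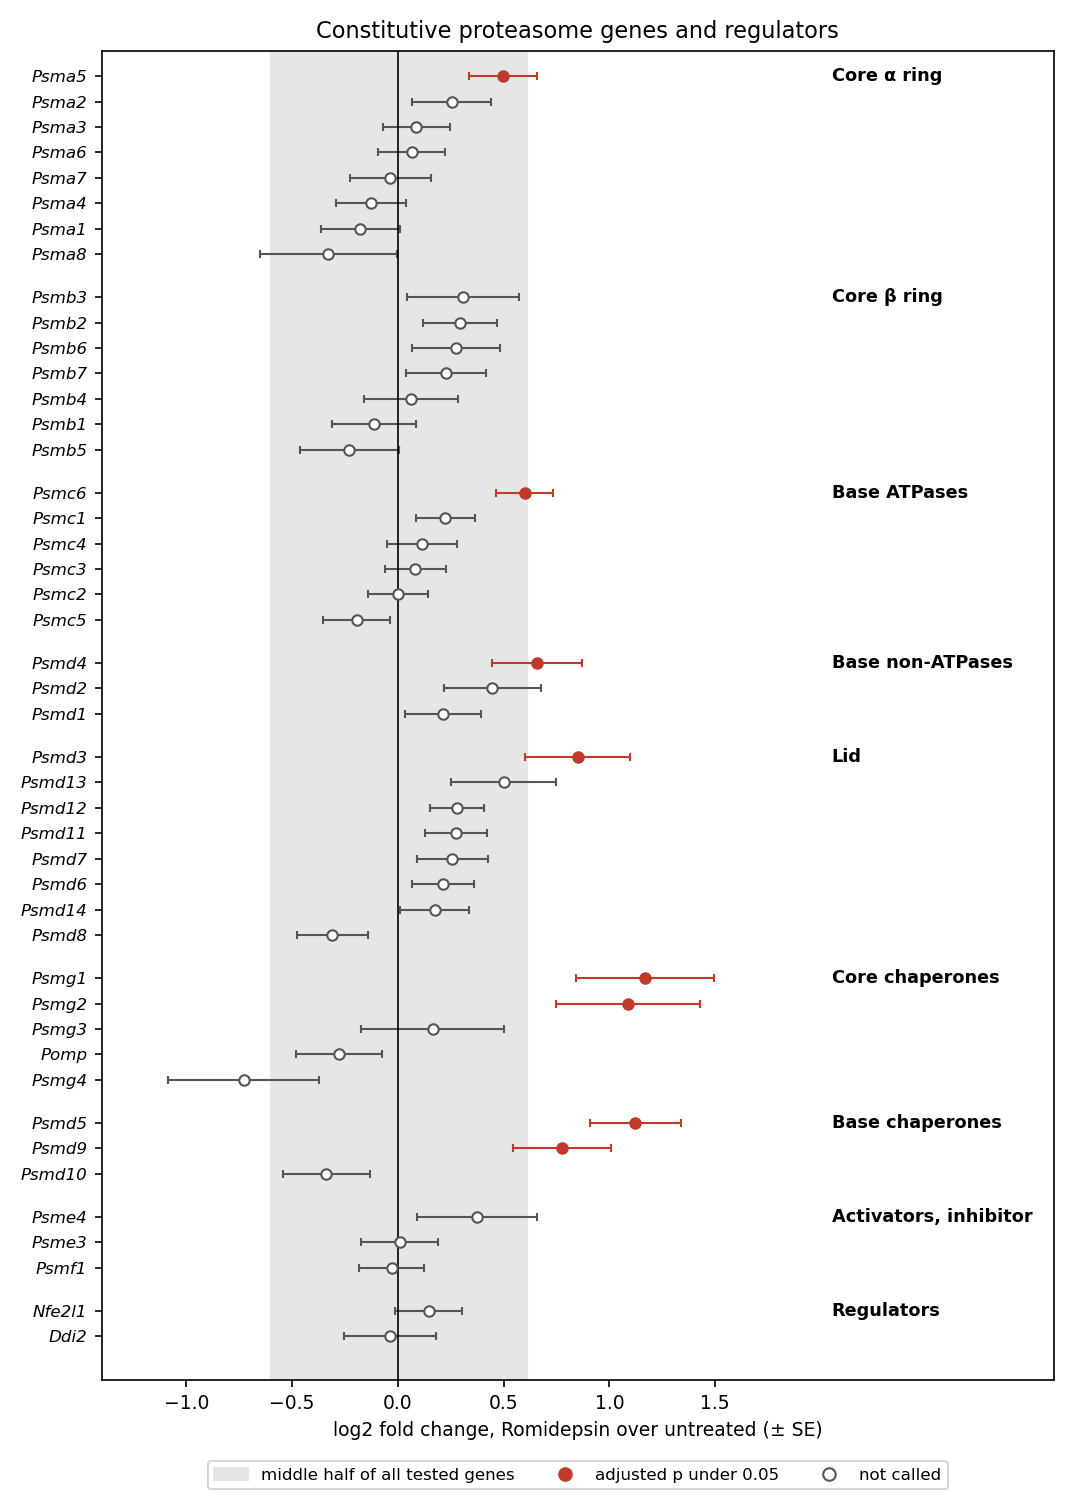
Log2 fold change of Romidepsin-treated over untreated cells (horizontal axis, points with SE) for the 45 genes, grouped by role and listed down the page, with called genes filled and the range from the lower to the upper quartile of all tested genes shaded. Of the 8 called genes 4 are assembly chaperones, and Psmg4 at -0.73 and Psmg1 at 1.17 mark the ends of the range.

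The count of called genes depended on the scaling and on single libraries. With library size alone or with 20 housekeeping genes as the scale, the median log2 fold change of all genes was 0.31 and 0.33 in place of 0.01, and that of the set was 0.48 and 0.52 in place of 0.17. With TMM scaling 3 of those 20 housekeeping genes were themselves called higher and 6 lower, at a median of -0.38. On those scales 16 and 20 of the 45 genes were called higher and still none lower, while 30.2% and 31.3% of all genes were called higher and 10.6% and 8.95% lower. The split of all calls was then 3886 higher and 1368 lower, or 4028 higher and 1150 lower, against 2610 higher and 2080 lower with TMM scaling. The 8 genes called with TMM scaling were positive on each scale. Of the 13 negative estimates, 3 were still negative with housekeeping scaling, Psmg4 at -0.42, Psmd10 at -0.02 and Psma8 at -0.01, and the other 10 were positive. Psmd5 and Psmc6 were called in each of the 8 fits that leave out 1 library, but the count of called genes was 2 without treated replicate 1, treated replicate 2 or untreated replicate 3, and 3 without untreated replicate 2 or 4. It was 5 without treated replicate 4, 6 without untreated replicate 1 and 9 without treated replicate 3, with 8 when both libraries numbered 3 were left out. Without treated replicate 3, 24.5% of all genes were called higher and 23.4% lower, and with the replicate block 7 of the 45 genes were called higher and none lower, against 21.2% and 20.8% of all genes. Psma4, Psma5, Psmb7, Psmc3, Psmd1, Psmd3, Psmd9 and Psmd13 share exon positions with a gene on the opposite strand, and no source used here gives the strand setting of the counting, so reads of the other gene may be among theirs. The shared stretch ran from 17 bp in Psmd3 to 1849 bp in Psmd9, whose merged exons hold 7248 bp.

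Core subunits form the rings in which proteins are cut. Of 15 tested, 1 was called higher and none lower, against 20.3% and 16.2% of all genes tested, with a median log2 fold change of 0.06. Psma5 (chr3:108256926-108279974, GRCm38), an alpha-ring subunit, was the one called. It had 111, 89.6, 79.0 and 91.2 CPM in treated replicates 1 to 4, against 69.1, 66.1, 73.6 and 54.4 CPM in untreated replicates 1 to 4. Every treated library lay above every untreated one, and the closest were the libraries numbered 3. Psma5 rose by 0.50 ± 0.16 (SE; adjusted p = 0.0385), a fold of 1.41. Its call was lost in each fit that left out a library other than treated replicate 3 (adjusted p up to 0.113), with the replicate block (0.0589), with DESeq2 size factors in edgeR (0.0502) and without the count filter (0.120). The other alpha-ring genes ranged from -0.33 for Psma8, a subunit made mainly in the testis, to 0.25 for Psma2. Psma8 had the lowest level per length of the 45 genes. Its level was 1.09, 1.40, 1.65 and 1.62 CPM in treated and 1.84, 2.31, 1.81 and 1.31 CPM in untreated libraries, with overlapping groups.

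The beta-type subunits include the catalytic ones, and none of the 7 was called. Psmb5 carries the chymotrypsin-like site, and had 42.6, 29.6, 37.4 and 42.1 CPM in treated libraries, against 60.1, 45.5, 44.5 and 27.9 CPM in untreated libraries. The groups overlapped, with untreated replicate 4 the lowest of all 8, and the difference was -0.23 ± 0.24 (adjusted p = 0.456). Psmb5 counts are uncertain, because the processed pseudogene Gm3375 is 98.9% identical over 796 bp, or 88.5% of the transcript. The same limit holds for the called Psma5, whose copy Gm8394 is 98.6% identical over 76.8% of the transcript. It also holds for Psmd2 (Gm5422, 97.0% over 86.3%), Psmc1 (AC110212.1, 95.6% over 82.1%) and Psma4 (Gm6542, 96.8% over 67.2%). In all, 10 of the 45 genes have pseudogene copies of at least 95% identity, some over smaller parts of the transcript. Psmb6, which carries the caspase-like site, had 258, 200.4, 235 and 212 CPM in treated and 177, 212, 229.6 and 129 CPM in untreated libraries. Here too the groups overlapped and untreated replicate 4 was the lowest, and the difference was 0.28 ± 0.21 (adjusted p = 0.313). Psmb7, which carries the trypsin-like site, had 135, 116, 83.9 and 101 CPM in treated and 100.1, 102, 98.0 and 72.5 CPM in untreated libraries. Its difference was 0.23 ± 0.19 (adjusted p = 0.362), with treated replicate 3 below 3 untreated libraries. Psmb3, a structural subunit, had the highest estimate of the ring, 0.31 ± 0.27 (adjusted p = 0.378), at 126, 96.4, 70.0 and 90.8 CPM in treated and 95.0, 96.2, 73.6 and 45.4 CPM in untreated libraries.

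The inducible partners of the catalytic subunits, which are not in the set, were lower in treated cells, so the make-up of the catalytic transcripts differed between the groups. Of the counts on the 6 catalytic genes, Psmb5, Psmb6 and Psmb7 took 68.9, 64.3, 40.8 and 53.9% in treated libraries, against 33.3, 26.2, 26.4 and 29.2% in untreated libraries. All treated libraries lay above all untreated ones, treated replicate 3 being the closest to them, and the means were 57.0% ± 12.5 and 28.8% ± 3.31 (SD, n = 4 each). This share compares genes within a library, so it does not depend on scaling, but it is not per length. Psmb6 took 75.5% ± 7.52 of the summed counts of Psmb6 and Psmb9 in treated and 51.2% ± 2.99 in untreated libraries. Psmb7 took 79.6% ± 19.5 of its sum with Psmb10 in treated and 34.9% ± 5.48 in untreated libraries, and Psmb5 took 17.5% ± 5.41 of its sum with Psmb8 in treated and 9.07% ± 2.89 in untreated libraries. The groups did not overlap for the Psmb6 and Psmb7 pairs, and overlapped for the Psmb5 pair.

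The changes on the inducible side were larger than those of the constitutive catalytic genes. Psmb10 fell by 2.58 on the log2 scale (SE 0.72, adjusted p = 0.0224), with 6.94, 7.69, 73.5 and 31.8 CPM in treated and 138, 214, 237 and 128 CPM in untreated libraries. Psmb9 fell by 1.26 (SE 0.33, adjusted p = 0.0181) and Psmb8 by 1.22 (SE 0.34, adjusted p = 0.0227). The calls of Psmb9 and Psmb10 were lost without treated replicate 4 or untreated replicate 3, with adjusted p up to 0.0523 and 0.0565, and that of Psmb10 without the count filter (0.105). The Psmb8 call was lost without treated replicate 1, 2 or 4 or untreated replicate 2 or 3 (adjusted p up to 0.0627). Psme1, a subunit of the interferon-inducible activator, fell by 1.13 (SE 0.39, adjusted p = 0.0495), a call kept in 1 of the 8 fits that leave out a library, that without treated replicate 3 (adjusted p up to 0.123 in the others). Its partner Psme2 was at -0.76 ± 0.28 and was called with the replicate block (adjusted p = 0.0303) but not without it (0.0563).

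**Figure D2:**
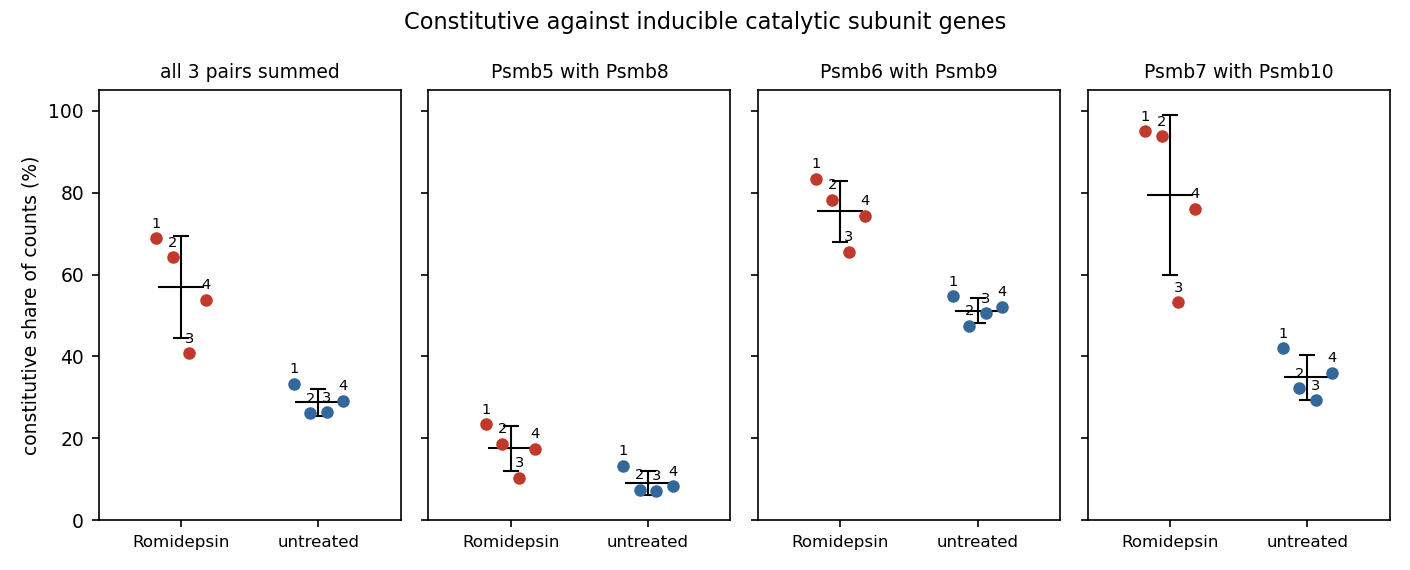
Constitutive share of the counts on catalytic subunit genes (percent, vertical axis), for all 6 genes together and for each constitutive and inducible pair, with 1 numbered point per library, bars for the mean ± SD, and treated libraries to the left of untreated ones. For all 6 genes the treated libraries lie between 40.8 and 68.9% and the untreated libraries between 26.2 and 33.3%.

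In the base 2 of 9 subunits were called higher and none lower, against 20.3% and 16.2% of all genes tested, with a median log2 fold change of 0.21. Psmc6 (chr14:45329788-45349705), one of the 6 ATPases, had 129, 122, 115 and 132 CPM in treated libraries, against 82.9, 77.4, 92.2 and 76.7 CPM in untreated libraries. The groups were well separated, and the 4 treated values lay close together. Psmc6 rose by 0.60 ± 0.13 (SE; adjusted p = 0.0102), a fold of 1.52, and was called in all 8 fits that leave out a library (adjusted p up to 0.0353). The other 5 ATPases were not called, and ranged from -0.19 for Psmc5 to 0.22 for Psmc1. Psmc5 had 84.3, 72.8, 68.2 and 85.7 CPM in treated and 89.3, 98.1, 97.8 and 70.8 CPM in untreated libraries, a difference of -0.19 ± 0.16 (adjusted p = 0.350).

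Psmd4 (chr3:95032694-95042614), a ubiquitin receptor, had 272, 214, 172 and 213 CPM in treated and 151, 158, 145 and 98.2 CPM in untreated libraries. The groups did not overlap, with treated replicate 3 the lowest of its group and untreated replicate 4 of the other. Psmd4 rose by 0.66 ± 0.21 (SE; adjusted p = 0.0373), a fold of 1.58. Its call was kept without treated replicate 3 and lost in the other 7 fits that leave out a library (adjusted p up to 0.104), and it was lost without the count filter (0.0686). The large scaffold subunits Psmd1 and Psmd2 were at 0.21 ± 0.18 (adjusted p = 0.361) and 0.45 ± 0.23 (adjusted p = 0.149). Psmd1 had 137, 133, 86.7 and 119.8 CPM in treated and 109, 90.5, 97.9 and 113 CPM in untreated libraries, so that treated replicate 3 was the lowest of all 8.

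In the lid 1 of 8 subunits was called higher and none lower, against 20.3% and 16.2% of all genes tested, with a median of 0.27. Psmd3 (chr11:98682554-98695979), a structural lid subunit, had 221, 222, 104.2 and 142 CPM in treated libraries, against 104.7, 93.9, 91.3 and 92.3 CPM in untreated libraries. The groups touched, because treated replicate 3 lay just below untreated replicate 1. Psmd3 rose by 0.85 ± 0.25 (SE; adjusted p = 0.0261), a fold of 1.80. The call was lost without treated replicate 1 or 2 or untreated replicate 2, 3 or 4 (adjusted p up to 0.0722). Psmd13 was at 0.50 ± 0.25 (adjusted p = 0.136). Among the fits that leave out a library it was called in that without treated replicate 3 alone (0.0284).

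The deubiquitinase of the lid and its scaffold were not called. Psmd14, the deubiquitinase, had 88.1, 76.5, 62.0 and 77.1 CPM in treated and 80.0, 58.0, 68.6 and 62.4 CPM in untreated libraries, with overlapping groups and a difference of 0.17 ± 0.16 (adjusted p = 0.413). Psmd11, a scaffold subunit, had 95.8, 92.7, 68.3 and 83.1 CPM in treated and 70.7, 66.8, 70.4 and 73.1 CPM in untreated libraries. Only treated replicate 3 lay within the untreated range, and the difference was 0.28 ± 0.15 (adjusted p = 0.161). Psmd12 had groups that did not overlap, at 93.4 ± 5.08 CPM in treated and 77.0 ± 5.47 CPM in untreated libraries (SD, n = 4 each), and yet was not called (0.28 ± 0.13, adjusted p = 0.111). Psmd8 had the lowest estimate of the lid, -0.31 ± 0.17 (adjusted p = 0.170). It had 232, 216, 264 and 221 CPM in treated and 278, 271, 343 and 264 CPM in untreated libraries, lower in treated cells in 4 of 4 pairs of the same number, and the groups met at treated replicate 3 and untreated replicate 4.

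Of the 8 assembly chaperones 4 were called higher and none lower, against 20.3% and 16.2% of all genes tested, with a median of 0.47 and the widest range of any group, -0.73 to 1.17. Psmg1 and Psmg2 encode the partners of a heterodimer that starts the alpha ring. Psmg1 (chr16:95979933-95990960) had 44.2, 34.2, 16.4 and 25.9 CPM in treated libraries, against 18.3, 14.6, 11.6 and 9.28 CPM in untreated libraries. Treated replicate 3 lay within the untreated range, and the other 3 treated libraries above it. Psmg1 rose by 1.17 ± 0.33 (SE; adjusted p = 0.0225), a fold of 2.25, and the call was lost without treated replicate 1 or 2 or untreated replicate 3 or 4 (adjusted p up to 0.0642). Psmg2 had 37.0, 34.7, 15.5 and 20.9 CPM in treated and 17.9, 14.0, 11.2 and 7.88 CPM in untreated libraries, with the same library inside the untreated range. It rose by 1.09 ± 0.34 (SE; adjusted p = 0.0345), a fold of 2.13, a call lost without treated replicate 1 or 2 or untreated replicate 2, 3 or 4 (adjusted p up to 0.0938).

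The other heterodimer of the alpha ring is formed by Psmg3 and Psmg4, and neither was called. Psmg4 had the lowest estimate of the 45 genes, -0.73 ± 0.36 (adjusted p = 0.132), at 7.91, 7.18, 16.4 and 12.6 CPM in treated and 18.1, 27.3, 17.6 and 10.2 CPM in untreated libraries. The groups overlapped through treated replicates 3 and 4 and untreated replicate 4. Without treated replicate 3, Psmg4 was at -1.002 and called lower (adjusted p = 0.0439). Psmg3 was at 0.16 ± 0.34 (adjusted p = 0.718). Pomp, which completes the beta ring and is degraded as the first substrate of the new particle, had 136, 95.0, 141 and 132 CPM in treated and 165, 170.3, 168 and 107 CPM in untreated libraries. The groups overlapped only through untreated replicate 4, and the difference was -0.28 ± 0.20 (adjusted p = 0.301).

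The base has its own chaperones, which bind its ATPases while it forms. Psmd5 (chr2:34849734-34874968) had 89.2, 95.4, 50.9 and 73.1 CPM in treated libraries, against 40.7, 32.4, 29.9 and 38.7 CPM in untreated libraries. The groups did not overlap, and even treated replicate 3 lay above every untreated library. Psmd5 rose by 1.12 ± 0.22 (SE; adjusted p = 0.00564), a fold of 2.18, the smallest adjusted p of the 45 genes, and was called in all 8 fits that leave out a library (adjusted p up to 0.0231). Psmd9 (chr5:123169413-123250131) had 70.0, 53.7, 33.9 and 45.0 CPM in treated and 33.9, 29.4, 31.7 and 23.4 CPM in untreated libraries. Treated replicate 3 and untreated replicate 1 met at the same level. Psmd9 rose by 0.78 ± 0.23 (SE; adjusted p = 0.0293), a fold of 1.71, a call kept without treated replicate 3 or untreated replicate 1 and lost in the other 6 such fits (adjusted p up to 0.0822). Its count is uncertain, because it shares 1849 bp of exon with Gm26745 on the opposite strand. Psmd10 (gankyrin), the remaining base chaperone, went the other way without passing the test, at -0.34 ± 0.21 (adjusted p = 0.216). It had 9.12, 10.7, 9.80 and 8.28 CPM in treated and 9.67, 11.1, 14.8 and 12.3 CPM in untreated libraries.

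**Figure D3:**
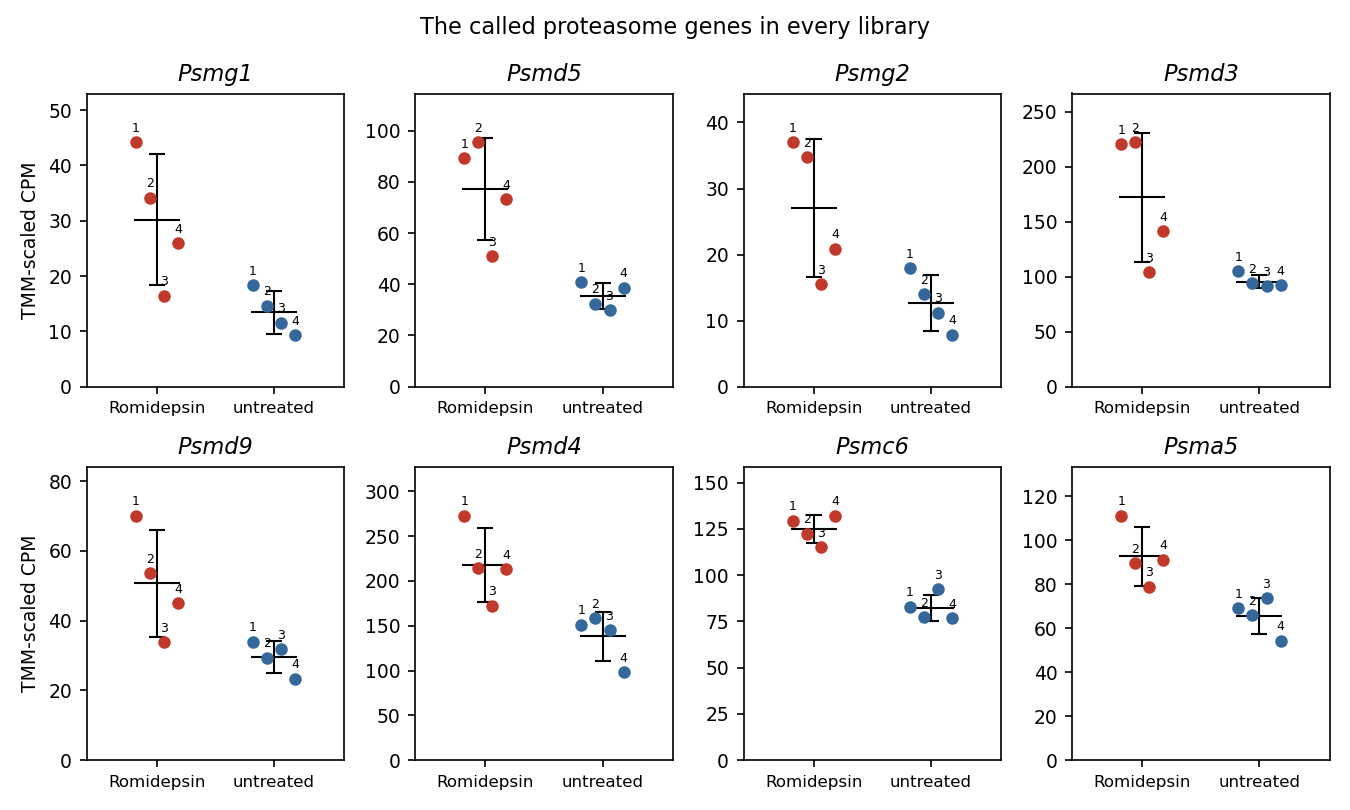
Level of each of the 8 called genes in every library (TMM-scaled CPM, vertical axis from 0), with 1 numbered point per library, bars for the mean ± SD, and treated libraries left of untreated ones. Treated replicate 3 is the lowest treated library for each of the 8 genes, and for Psmc6, at 115 CPM, it still lies above the untreated maximum of 92.2 CPM.

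Set against the core within each library, the mean over the 8 assembly chaperones stood higher in treated cells. Members did not share 1 direction: 5 of the 8 had positive log2 fold changes and 3 negative ones. The difference between their mean log2 CPM and that of 14 core subunits (without Psma8) was -2.02, -1.99, -2.27 and -2.18 in treated libraries, against -2.33, -2.33, -2.43 and -2.33 in untreated libraries. The groups did not overlap and their means differed by 0.24. For the base the difference from the core was 0.15, 0.34, 0.12 and 0.27 in treated and -0.06, -0.03, 0.09 and 0.38 in untreated libraries. For the lid it was -0.17, 0.05, -0.32 and -0.19 in treated and -0.41, -0.51, -0.37 and 0.06 in untreated libraries. Both overlapped through untreated replicate 4, which stood above its group in each. Over 5 chaperones of the core and 3 of the base taken apart, the groups overlapped as well.

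**Figure D4:**
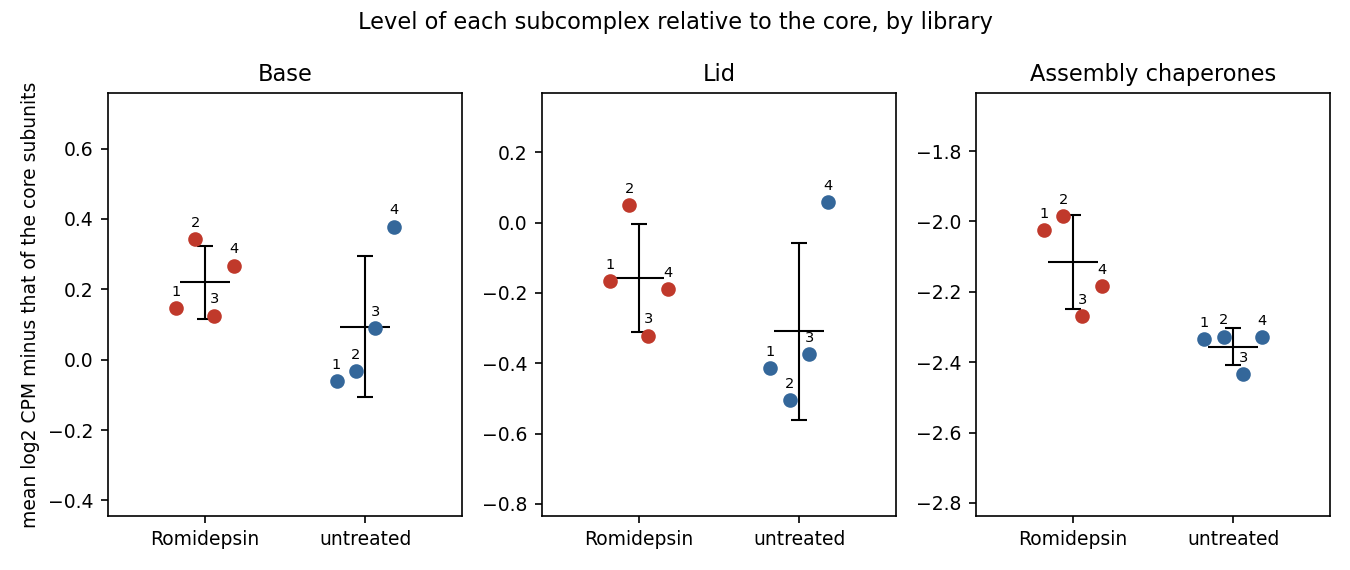
Mean log2 CPM of the base, lid and assembly chaperone genes minus that of 14 core subunit genes (vertical axis), with 1 numbered point per library, bars for the mean ± SD, and treated libraries to the left. The chaperone values of treated libraries lie between -2.27 and -1.99 and those of untreated libraries between -2.43 and -2.33, while base and lid overlap.

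The upstream sequences of 4 assembly factors, which share a role, are given. Psmg1, Psmd5 and Psmd9 were called higher and Pomp was not called. Whether the response of Pomp differed from those of the others was not tested. Each is the 250 bases before the RefSeq transcription start (GRCm38.p6), written 5′ to 3′ on the strand of the gene. For Psmd5, Psmd9 and Pomp that start lies downstream of the outermost start in the GENCODE annotation. Capitals mark matches, on either strand, to GGGCGG, a motif bound by Sp family factors, and to TGACNNNGC, the core of the antioxidant response element that NRF1 binds. The windows are chr16:95990961-95991210 on the minus strand for Psmg1, chr2:34870963-34871212 on the minus strand for Psmd5, chr5:123227940-123228189 on the plus strand for Psmd9 and chr5:147860378-147860627 on the plus strand for Pomp.
Psmg1: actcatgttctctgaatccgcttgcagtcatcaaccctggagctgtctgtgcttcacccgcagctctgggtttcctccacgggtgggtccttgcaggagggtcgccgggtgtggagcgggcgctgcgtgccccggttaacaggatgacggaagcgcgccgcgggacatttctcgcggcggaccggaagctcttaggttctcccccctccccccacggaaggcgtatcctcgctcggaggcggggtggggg
Psmd5: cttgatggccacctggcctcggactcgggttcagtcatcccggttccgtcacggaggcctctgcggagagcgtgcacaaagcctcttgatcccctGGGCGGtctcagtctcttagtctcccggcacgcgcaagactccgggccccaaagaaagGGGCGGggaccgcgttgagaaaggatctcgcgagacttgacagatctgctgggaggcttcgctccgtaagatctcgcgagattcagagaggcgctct
Psmd9: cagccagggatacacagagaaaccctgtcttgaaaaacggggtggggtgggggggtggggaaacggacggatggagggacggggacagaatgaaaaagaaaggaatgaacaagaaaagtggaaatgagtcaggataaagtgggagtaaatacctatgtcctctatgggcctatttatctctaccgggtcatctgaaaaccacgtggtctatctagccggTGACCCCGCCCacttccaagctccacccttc
Pomp: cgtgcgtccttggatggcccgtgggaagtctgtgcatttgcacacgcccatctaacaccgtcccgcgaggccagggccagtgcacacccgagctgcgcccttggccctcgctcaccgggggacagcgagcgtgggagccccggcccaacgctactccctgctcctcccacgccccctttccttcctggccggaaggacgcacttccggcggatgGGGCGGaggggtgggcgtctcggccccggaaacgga
Psmg1 held neither motif in this window. Psmd5 held GGGCGG at -155 to -150 and at -97 to -92, counted back from the start, and Pomp at -36 to -31. Psmd9 held TGACCCCGC at -31 to -23, which overlapped a GGGCGG match on the other strand at -26 to -21.

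RefSeq gave such a window for 37 of the 45 genes. TGACNNNGC occurred in 5 of the 37 (13.5%), Psmb5, Psmb6, Psmc6, Psmd12 and Psmd9, against 11.5% of all genes with a window. GGGCGG occurred in 22 (59.5%), against 35.4% of all genes, and CCAAT, the letters of the CCAAT box, in 13 (35.1%), against 37.5%. Of the 6 called genes with a window, Psmc6 and Psmd9 held TGACNNNGC, Psmc6, Psmd5 and Psmd9 held GGGCGG, and Psmd4 held CCAAT. The median GC content was 58.4% for the windows of the set and 52.4% for all, so that a GC-rich motif and base composition move together here, and neither was tested against the response. A match is a description of these letters and not a site in use.

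The genes for alternative activators and the inhibitor were not called. Psme4, a nuclear activator cap, had 153, 177, 111 and 142 CPM in treated and 76.7, 82.9, 112 and 179 CPM in untreated libraries. Untreated replicate 4 was the highest of all 8, and the difference was 0.37 ± 0.28 (adjusted p = 0.312). Without that library it was 0.69 and called higher (adjusted p = 0.0395). Psmf1, which encodes an inhibitor, had 46.0, 38.0, 41.5 and 35.6 CPM in treated and 36.9, 45.6, 45.9 and 36.1 CPM in untreated libraries, a difference of -0.03 ± 0.15 (adjusted p = 0.893). Psme3, another nuclear activator, was at 0.01 ± 0.18 (adjusted p = 0.976).

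The pathway that induces proteasome genes showed no called difference in its own messages for the factor and its protease. Nfe2l1 had 201, 210.0, 209 and 203 CPM in treated and 173, 157, 193 and 221 CPM in untreated libraries. The treated values lay close together within the untreated range, and the difference was 0.14 ± 0.16 (adjusted p = 0.488). Ddi2 had 143, 171, 151 and 153 CPM in treated and 130.1, 132, 137 and 234 CPM in untreated libraries. All 4 treated values lay above untreated replicates 1 to 3 and below untreated replicate 4. Its difference was -0.04 ± 0.22 (adjusted p = 0.899), and 0.21 without untreated replicate 4. Ddi2 shares 1749 bp of exon with Rsc1a1 on the same strand, so its count is uncertain. Because NRF1 is controlled by cleavage and stability, these levels say nothing of the active protein.

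Untreated replicate 4 set the spread of many of these genes. It was the lowest of its group for 31 of the 45 genes and the highest for 9. Its deviation from its group followed transcript length: Spearman's rho between the deviation and the length of the principal transcript was 0.75 over the 45 genes and 0.69 over the 9039 genes whose mean reached 10 CPM, given as a description, since all points share this library. Each deviation was taken from the mean of the other libraries of the group. Over the 45 genes rho was 0.45 for treated replicate 2, -0.48 for untreated replicate 1 and -0.57 for untreated replicate 2. For the remaining 4 it lay between -0.18 and -0.12. The means set against untreated replicates 1 to 3 contain untreated replicate 4, so those values partly mirror it and are not independent. The same dependence holds among the treated libraries. The 2 genes with the longest principal transcripts, Ddi2 (9553 bases) and Psme4 (6491 bases), were highest in untreated replicate 4. Psmg1 (1044 bases), Psmg2 (1059 bases) and Psmb3 (766 bases) were lowest in it. Without it 3 genes were called higher, Psmc6, Psmd5 and Psme4. Whether length or depth has a part in the group differences was not tested.

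**Figure D5:**
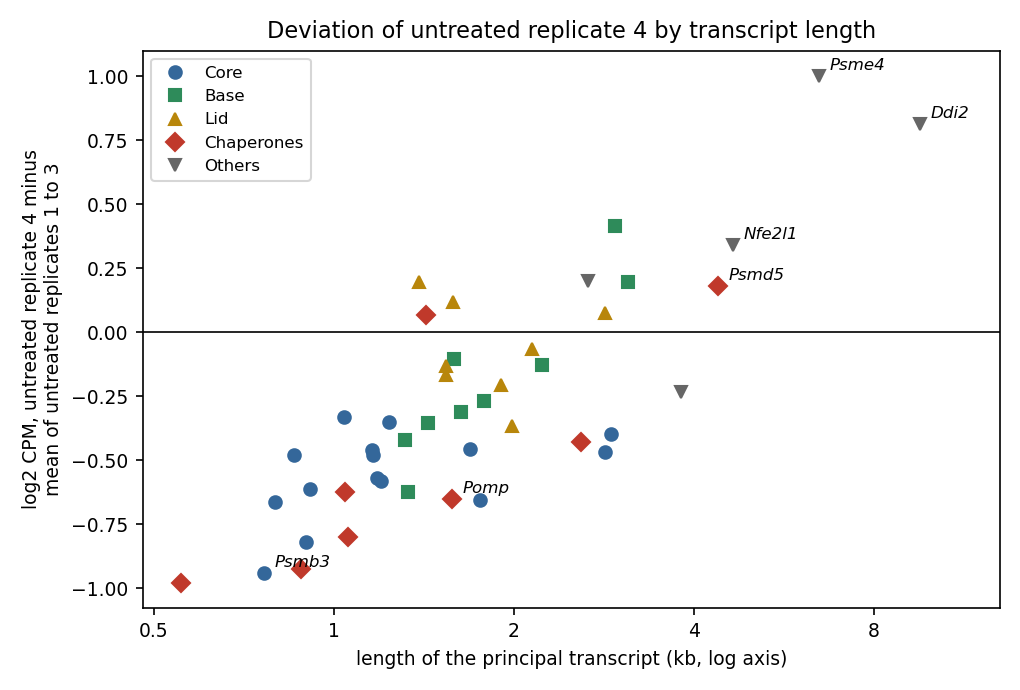
Deviation of untreated replicate 4 from the mean of untreated replicates 1 to 3 (log2 CPM, vertical axis) against the length of the principal transcript (kilobases, log axis) for the 45 genes, with symbols by role. Genes of short transcripts lie mostly below 0 and the longest, Ddi2 at 9553 bases and Psme4 at 6491 bases, lie above it.

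Per length of the principal transcript, the core was the most abundant of the subcomplexes in both groups and the chaperones the least. The median level was 115.0 CPM per kilobase for the core in treated and 101.3 in untreated cells, 77.8 and 72.0 for the base, 54.3 and 45.2 for the lid, and 19.7 and 12.4 for the chaperones. Lengths of merged exons, which include retained introns, gave 45.6 and 49.8 for the core, 55.8 and 49.2 for the base, 35.0 and 26.5 for the lid, and 13.1 and 7.74 for the chaperones, so the order of core and base in treated cells depends on that choice. Per principal transcript Psmb6 was the highest of the 45, at 284 ± 32.3 CPM per kilobase in treated and 234 ± 55.3 in untreated cells (SD, n = 4 each).

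Genes that work with the proteasome were read from 3 lists. Of 16 tested partners 2 were called higher and none lower, against 20.3% and 16.2% of all genes tested. Uchl5, a deubiquitinase of the cap, had 74.4, 73.3, 43.9 and 70.7 CPM in treated and 44.0, 38.2, 30.2 and 30.0 CPM in untreated libraries, a rise of 0.88 ± 0.21 (adjusted p = 0.0134), and was called in all 8 fits that leave out a library. Treated replicate 3 alone met the untreated range. Zfand5, which stimulates the particle, rose by 0.51 ± 0.15 (adjusted p = 0.0308), at 166 ± 21.0 CPM in treated and 117.0 ± 9.77 CPM in untreated libraries (SD, n = 4 each). That call was kept without treated replicate 1 or 3 or untreated replicate 4, lost in the other 5 such fits (adjusted p up to 0.0883), and lost without the count filter (0.124).

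Of 6 tested genes that supply or activate ubiquitin, 1 was called higher and none lower, against the same 20.3% and 16.2%. Uba6, the alternative ubiquitin-activating enzyme, had 94.4, 110.1, 65.3 and 96.5 CPM in treated and 26.7, 26.5, 30.9 and 44.0 CPM in untreated libraries. The groups did not overlap, and Uba6 rose by 1.51 ± 0.23 (adjusted p = 0.00232), a fold of 2.86. It was called in all 8 fits that leave out a library.

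Of 17 tested genes that process NRF1, partner with it or are induced by it or by its relative NRF2, 5 were called higher and 2 lower, with 20.3% and 16.2% as the shares of all genes tested. Txnrd1, a thioredoxin reductase, rose by 1.29 ± 0.30 (adjusted p = 0.0113), at 286 ± 81.8 CPM in treated and 117.0 ± 36.4 CPM in untreated libraries (SD, n = 4 each). Fbxw7 and Syvn1, subunits of ubiquitin ligases that act on NRF1, rose by 0.59 ± 0.15 (adjusted p = 0.0146) and 0.52 ± 0.14 (adjusted p = 0.0187). Keap1, the adaptor that restrains NRF2, fell by 1.01 (SE 0.21, adjusted p = 0.00752), at 58.7 ± 13.9 CPM in treated and 118.6 ± 22.1 CPM in untreated libraries. Mafg, a small Maf partner of NRF1 and NRF2, fell by 1.23 (SE 0.21, adjusted p = 0.00368), at 53.8 ± 11.2 CPM in treated and 126.6 ± 28.0 CPM in untreated libraries. Calls of Txnrd1, Fbxw7, Keap1 and Mafg were kept in all 8 fits that leave out a library. The Syvn1 call was lost without treated replicate 1, 2 or 4 or untreated replicate 3 (adjusted p up to 0.0594), and the Fbxw7 and Syvn1 calls were lost without the count filter (0.0520 and 0.0870).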

How the data were processed

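Reads per Ensembl gene were deposited as raw counts for the 8 libraries. Per the labels' protocols, these were made from poly(A) RNA isolated with a NEBNext module and run on an Illumina NextSeq 500. The submitters' processing notes name FastQC, STAR 2.5.2a, DESeq2 and the build GRCm38 (mm10). How reads were counted, on which annotation, with which strand setting and filters, is not given in the sources used here. Symbols were found for 26881 of 26930 identifiers. Coordinates, exons and lengths are those of GENCODE on GRCm38, and promoters those of RefSeq.

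Groups come from the sample labels. The deposited counts were fitted with edgeR 4.0.16 (R 4.3.3), after filterByExpr (12852 genes kept) and TMM scaling, using robust dispersions and quasi-likelihood F tests (two-sided), Benjamini-Hochberg adjusted over the genes tested. CPM values were computed from the deposited counts and are TMM-scaled. Alternatives were other scalings and count filters, DESeq2 1.42.0, limma-voom (limma 3.58.1), a replicate block and leaving out each library. The fit without both libraries numbered 3 and the length of the principal transcript were added after seeing the data. Each leave-one-out fit kept the 12852 genes. Libraries sharing a number deviated together from their group means (r of 0.525, 0.270, 0.457 and 0.171, highest other value 0.0467). Because the group means were subtracted, positive same-number values push the others down, so the highest other value is no independent baseline. These same-number values are all over 0.1. On this ground alone the replicate block and the comparisons by number treat the libraries as pairs, because the labels do not explain the numbers. The main fit has no replicate term.

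The set and the lists were chosen with earlier results of these data known, so no list was tested as such. Values in every library are given for Nfe2l1, Ddi2, Pomp, Psmb5, Psmb6, Psmb7, Psmd4, Psmd11, Psmd14, Psme4 and the tested members of highest and lowest fold change in each role class, and values in each pathway list for up to 3 called genes in the majority direction and 2 in the other, with the 5 immunoproteasome genes. Psma2, Psmc1, Psmd2, Psmd12, Psmd13, Psme3, Psmg3 and Xcr1 were named after their values were seen, and Psmg2 and Psmd9, called but not taken by this rule, were given in every library on the same footing. Of the 45 genes, 10 have pseudogene copies of at least 95% identity over 100 bp, and the 13 of these 17 copies in the table hold 406 counts, or 0.0663% of the 612644 counts of the set. Exons are shared with a gene on the same strand by 4 genes (Psmb5, Psmd1, Psmg3 and Ddi2) and with one on the opposite strand by 8. A gene near 1 CPM rests on few counts.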

Additional observations from a re-analysis of the deposited data

Results flagged for a closer look

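In each group of 4 libraries the gap between the highest or lowest library and its nearest neighbour was set against the range of the group. Among 90 such groups of the 45 genes 6 held a library that stood apart, where chance gives about 1 in 20 groups. Psma4 was at 92.4 CPM in treated replicate 2, against 111 to 114 CPM in the other treated libraries, and at 91.0 CPM in untreated replicate 4, against 124 to 130.0 CPM in the other untreated libraries. Untreated replicate 4 also stood apart for Psmb7 at 72.5 CPM (98.0 to 102 CPM in the others), for Psmc3 at 118 CPM (144 to 149 CPM), for Pomp at 107 CPM (165 to 170.3 CPM) and for Ddi2 at 234 CPM (130.1 to 137 CPM). Of these 5 genes Ddi2, which has the longest transcript, was high in that library and the others were low. None of the 5 was called in the comparison of treated and untreated cells.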

How the results depend on the processing

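None of the 8 called genes changed direction under any alternative run, but 10 uncalled genes had a positive estimate with housekeeping scaling and a negative one with TMM, among them Psmd8 (0.01), Pomp (0.05), Psmb5 (0.11), Psmc5 (0.13), Ddi2 (0.25) and Psmf1 (0.29). Of 45 genes, 8 were called higher; the count was 16 with library size alone, 20 with housekeeping scaling and 2 to 9 with 1 library left out, and that of lower calls (0) was 0 to 1. Over all genes, 2610 were called higher (4028 with housekeeping scaling, 1716 to 3146 with 1 library left out) and 2080 lower (1368 with library size alone, 1150 with housekeeping scaling, 1183 to 3010 with 1 left out). In the 4 pathway lists 8 genes were called higher (15 with library size alone, 13 with housekeeping scaling, 4 without the count filter, 4 to 10 with 1 left out) and 6 lower (2 to 9). With library size alone and with housekeeping scaling, the median log2 fold change was 0.37 and 0.41 for the core, 0.52 and 0.54 for the base, 0.57 and 0.59 for the lid, 0.79 and 0.82 for the assembly chaperones (0.47 with TMM), and 0.48 and 0.52 for all 45 genes. With 1 library left out it ranged from -0.02 to 0.16 for the core, 0.14 to 0.24 for the base, 0.21 to 0.31 for the lid, 0.23 to 0.61 for the assembly chaperones and 0.11 to 0.24 for all. With the longest transcript and with the principal transcript as length, the untreated median was 101.3 and 101.3 CPM per kilobase for the core, 63.8 and 72.0 for the base, 44.8 and 45.2 for the lid, and 10.5 and 12.4 for the chaperones. The causes of these shifts were not tested. DESeq2 size factors gave 7 higher calls, without Psma5 (0.46, adjusted p = 0.0502). Pairing the samples with the replicate block gave 7 genes called higher and 0 lower; Psma5 lost its call (0.49, adjusted p = 0.0589), and no other call of the 45 genes changed. Among the 25 genes given in every library, a call was lost 38 times, gained 8 times and unchanged 403 times. Depth limits genes near 1 CPM such as Psma8.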
